A study of Rattus norvegicus with 6 samples.

Results

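The transcripts of protein phosphatase 2A (PP2A) subunits were followed in the rat sciatic nerve after a crush injury. The set was chosen by gene symbol and holds 10 genes of the 30957 in the gene table: the catalytic subunits Ppp2ca and Ppp2cb, the scaffold subunits Ppp2r1a and Ppp2r1b, the B55 regulatory subunits Ppp2r2a, Ppp2r2b, Ppp2r2c and Ppp2r2d, and the regulatory subunits Ppp2r3a and Ppp2r5b. All 10 were found, and all 10 were among the 15195 genes that passed the low-count filter. Other genes of PP2A, its partners and its relatives are given from separate lists further on.

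PP2A is a serine/threonine phosphatase of nearly all cells. Its core is a dimer of a catalytic C subunit and a scaffold A subunit, and a regulatory B subunit joins this core and directs it to its substrates. Akt, a kinase of growth and survival signaling that Schwann cells use in myelination and repair, is among the substrates, and B55 subunits are known to bring PP2A to it. Ppp2r2b and Ppp2r2c are best known from the brain. The study itself drew attention to Ppp2r2b and Ppp2r2c from changes in these same libraries, so their direction is not independent evidence here.

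Sciatic nerve RNA came from Sprague-Dawley rats that were 1 month old, and the study calls the injured samples lesional tissue. Each of 3 groups had 2 rats, with 1 library from each rat, named a or b within its group. In the D4 and D7 groups the left nerve had been crushed with forceps 4 or 7 days earlier. The control rats are labelled as normal, whereas the study's methods describe the operation without the clamp. The nerve is a mixture of Schwann cells, fibroblasts, immune cells, vessels and fat, and in such bulk samples fewer cells of a type cannot be told apart from less RNA per cell.

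The deposited gene counts summed to between 18727255 and 25350886 fragments per library, and those of the lncRNA table to between 2694777 and 3043817. Levels between libraries are given as CPM, the counts per 1000000 fragments, scaled with TMM factors, which correct for differences in library composition, and levels between genes as FPKM within a library, since FPKM is per length. The 7 Schwann cell myelin markers were detected in every library and summed to 105100 and 71737 CPM in uninjured controls, to 3379 and 3858 CPM at D4 and to 17264 and 10756 CPM at D7. The D7 library a stood apart in fat: its 6 adipocyte markers summed to 52.7 CPM against 274 to 1593 CPM in the other 5 libraries. Skeletal muscle markers varied within every group, from 4.02 CPM in control a to 81.5 CPM in D4 a, and values without single libraries are given where they change a result.

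The RefSeq promoter windows (GRCr8) held entries for 8 of the 10 members, all but Ppp2cb and Ppp2r2a. The 250 bases before the annotated start are printed for the member with the largest fall, the member with the largest rise, and a catalytic subunit whose level did not pass the test, so that their letters can be set beside their changes. In Ppp2r2c (chr14:78156213-78156462, minus strand) the capitals mark a GC box. In Ppp2r1b (chr8:60092309-60092558, plus strand) they mark CCAAT boxes, here read as ATTGG on the printed strand. In Ppp2ca (chr10:36858787-36859036, plus strand) they mark a cAMP response element (CRE).
Ppp2r2c: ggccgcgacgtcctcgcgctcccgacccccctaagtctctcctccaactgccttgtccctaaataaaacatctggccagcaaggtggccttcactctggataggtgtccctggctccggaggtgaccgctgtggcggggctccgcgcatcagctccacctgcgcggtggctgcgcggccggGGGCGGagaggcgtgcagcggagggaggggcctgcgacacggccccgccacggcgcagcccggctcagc
Ppp2r1b: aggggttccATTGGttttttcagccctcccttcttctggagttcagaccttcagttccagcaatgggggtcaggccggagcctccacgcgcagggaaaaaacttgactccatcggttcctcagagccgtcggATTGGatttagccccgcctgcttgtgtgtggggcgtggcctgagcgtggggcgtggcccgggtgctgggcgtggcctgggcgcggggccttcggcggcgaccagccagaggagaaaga
Ppp2ca: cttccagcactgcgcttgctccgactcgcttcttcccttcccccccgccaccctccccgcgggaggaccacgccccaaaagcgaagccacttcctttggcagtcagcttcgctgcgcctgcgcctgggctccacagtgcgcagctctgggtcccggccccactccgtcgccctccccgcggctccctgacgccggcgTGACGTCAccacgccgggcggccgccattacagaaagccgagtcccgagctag

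These windows differed in the motifs searched on both strands. The CRE TGACGTCA was held by Ppp2ca and Ppp2r2d and by 1.59% of all 33469 windows. The GC box GGGCGG was held by Ppp2ca, Ppp2r1a and Ppp2r2c (30.5% of all windows), and the CCAAT box CCAAT by Ppp2r1a, Ppp2r1b and Ppp2r2b (34.0%). The AP-1 motif TGANTCA was held by Ppp2r1a (6.34%) and the SOX motif ACAAAG by Ppp2r3a and Ppp2r5b (16.3%), while no member window held the E-box CACGTG (5.59%). The B55 members that fell shared no motif of this list. Their CpG content also differed, with 25 CpG dinucleotides in the Ppp2r2c window and 2, 6 and 7 in the windows of 3 annotated Ppp2r2b starts, against a median of 5 over all windows. A match describes letters and not a bound site.

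On D4, 1 of the 10 members rose and 3 fell past an adjusted p-value of 0.05 and a 2-fold change (quasi-likelihood test of edgeR, Benjamini-Hochberg adjusted over all 15195 genes). The scaffold Ppp2r1b rose, and the B55 subunits Ppp2r2b and Ppp2r2c and the calcium-binding regulatory subunit Ppp2r3a fell. Over all genes tested, 11.2% rose and 10.7% fell by the same rule. With the adjusted p-value alone, 2 members rose and 3 fell, against 21.6% and 22.6% of all genes. The median log2 fold change was 0.02 over the members and -0.04 over all genes.

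On D7, no member rose and 2 fell by the 2-fold rule, against 9.83% of all genes higher and 9.02% lower. By the adjusted p-value alone 2 members rose and 3 fell, against 19.5% and 18.1%. The median was -0.08 over the members and 0.01 over all genes. Between D7 and D4, 1 member was higher by the 2-fold rule and none was lower, where 1.68% and 0.494% of all genes were. That member was Ppp2r2c. Both injured groups were compared with the same control libraries.

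**Figure D1:**
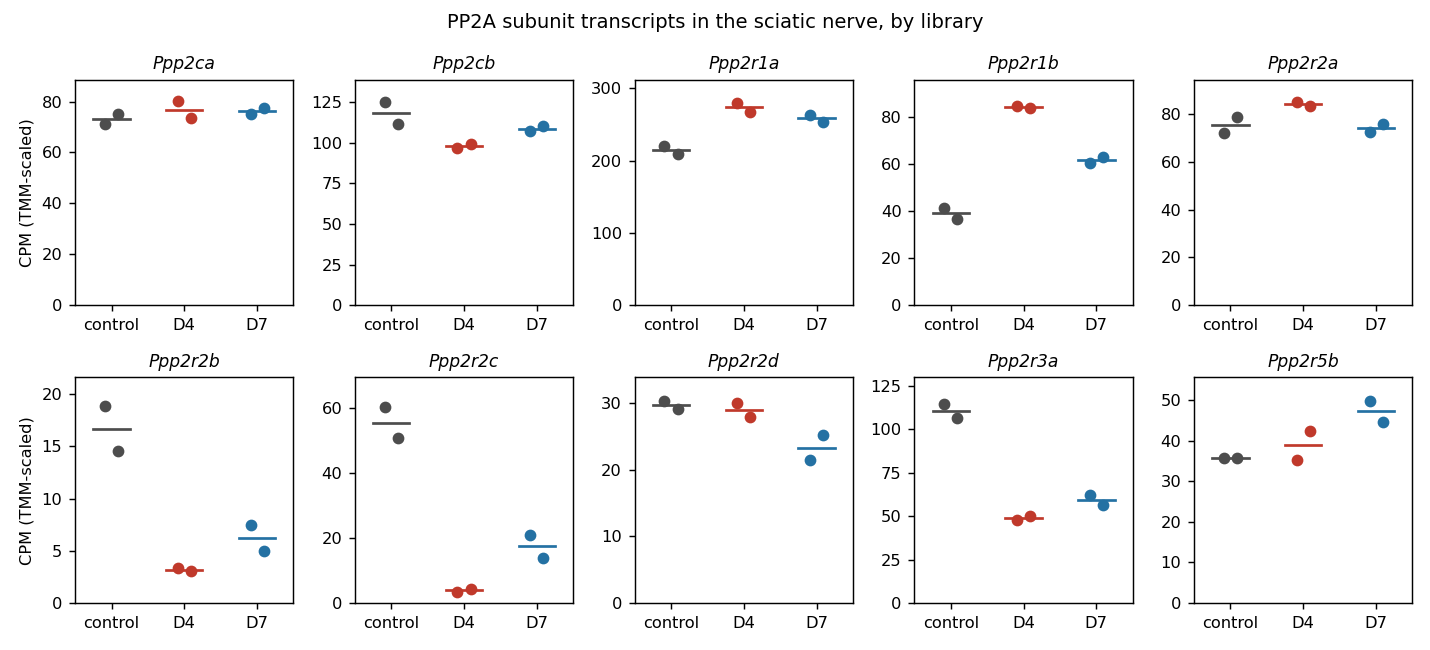
TMM-scaled CPM (y axis, from 0) of each PP2A subunit in control, D4 and D7 nerves (x axis), with 1 point per library and a bar at the mean of 2. Ppp2r2b, Ppp2r2c and Ppp2r3a sit lower in all 4 injured libraries than in the controls and Ppp2r1b sits higher, while the points of Ppp2ca and Ppp2r2a stay close together.

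**Figure D2:**
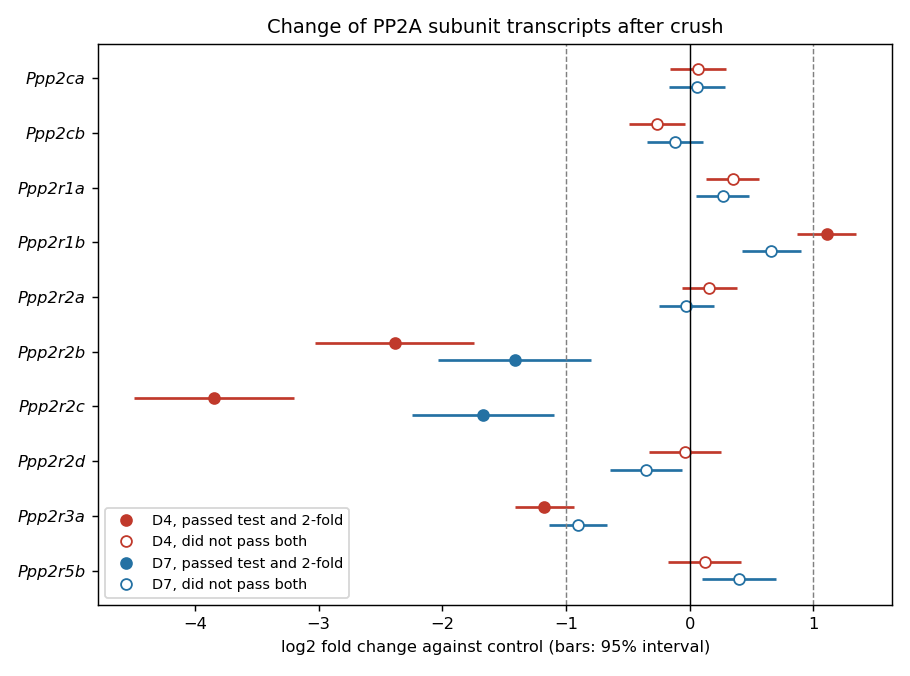
log2 fold change against control (x axis) of each subunit on D4 (red) and D7 (blue), with the 95% interval as a bar. Filled points passed the adjusted p-value of 0.05 and the 2-fold change marked by dashed lines, which were 4 members on D4 and 2 on D7.

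The catalytic subunits kept nearly the level of the control nerve. Ppp2ca, the alpha isoform of the phosphatase itself (ENSRNOG00000005389, Rnor_6.0 chr10:37535871-37554664), measured 71.2 CPM in control a and 75.2 CPM in control b, followed by 80.1 and 73.5 at D4 and by 75.1 and 77.3 at D7. The 3 groups overlapped. Its log2 fold change was 0.07 on D4 (95% interval -0.16 to 0.29, adjusted p = 0.578) and 0.06 on D7 (-0.17 to 0.28, adjusted p = 0.649).

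Ppp2cb, the beta isoform (ENSRNOG00000015182, chr16:62273276-62294769), measured 125 and 111 CPM in control, 96.9 and 99.4 on D4, and 107 and 110 on D7. All 4 injured libraries lay below both control libraries. The differences were small and did not pass the test, with log2 fold changes of -0.27 on D4 (SE 0.09, adjusted p = 0.0593) and -0.12 on D7 (adjusted p = 0.340). Without control b the D4 value was -0.35 and passed (adjusted p = 0.0438). Without TMM factors the D4 value was 0.02 and the D7 value 0.17. Omitting the factors moved the median of all genes to 0.25 on D4 and 0.31 on D7, and the direction of the smaller member changes depends on this shift.

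Within a library the isoforms stood near equal by FPKM. Ppp2ca made up 49.3% and 53.5% of the summed catalytic FPKM in control, 58.5% and 55.8% on D4, and 54.5% in both D7 libraries. Every injured library lay above both control libraries, a spread that was described and not tested. The FPKM of Ppp2ca was computed over 930 nt and that of Ppp2cb over 1585 nt, lengths found by dividing the counts by FPKM and depth. By counts, which take no account of length, Ppp2ca held 38.3% in control. The isoforms are close paralogs, and how fragments that match both were counted is not given in the sources used here, so the split between them is uncertain.

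Both scaffold subunits rose on D4. Ppp2r1a, the alpha isoform that carries most A subunit transcript (ENSRNOG00000011282, chr1:60717386-60736609), measured 220 and 209 CPM in control, 280 and 267 on D4, and 263 and 253 on D7. All injured libraries were above both controls. The rise was 1.27-fold on D4 (log2 0.35, SE 0.09, adjusted p = 0.0208) and passed the test without the 2-fold change. It was lost without D4 a (adjusted p = 0.132), D4 b (0.0877) or control b (0.0751). The D7 value was 0.27 with adjusted p = 0.0565.

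Ppp2r1b, the less abundant beta scaffold (ENSRNOG00000010922, chr8:55279373-55301320), gave the clearest rise of the set. It measured 41.3 and 36.7 CPM in control, 84.6 and 83.6 on D4 and then 60.2 and 63.1 on D7, and the 3 groups did not overlap. The D4 level was 2.16-fold that of the control (log2 1.11, SE 0.10, adjusted p = 0.000478). The D7 level was 1.58-fold (log2 0.66, adjusted p = 0.00393). Between D4 and D7 it differed by -0.45, which did not pass the test (adjusted p = 0.0591). The difference did not pass without TMM factors either (0.055). It passed with DESeq2 (adjusted p = 0.0031), in the fit of 2 groups (0.0348) and with relative log expression factors (0.0483). With a library left out the difference ran from -0.48 to -0.43, and whether it passed depended on the library.

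The A subunit make-up differed by group. Ppp2r1b took 9.12% and 8.57% of the summed scaffold FPKM in control, 13.9% and 14.4% on D4 and then 10.9% and 11.8% on D7. The ratio of Ppp2r1a to Ppp2r1b was 9.96 and 10.7 in control against 6.18 and 5.97 on D4, and stood at 8.17 and 7.50 on D7. The groups did not overlap in this ratio, and Ppp2r1a stayed the more abundant in all 6 libraries.

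Of the 4 B55 subunits, 2 fell strongly and 2 did not pass the test. Ppp2r2c, the gamma isoform (ENSRNOG00000058202, chr14:78679214-78902063), measured 60.2 and 50.6 CPM in control, 3.28 and 4.40 on D4 and then 20.9 and 13.9 on D7. The 3 groups were separate, with D4 lowest. The D4 level was 14.4-fold below control (log2 -3.85, SE 0.26, 95% interval -4.49 to -3.20, adjusted p = 0.000239). It rested on 80 and 119 fragments on D4 against 1168 and 839 in control.

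By D7 the Ppp2r2c transcript was still 3.18-fold below control (log2 -1.67, SE 0.24, adjusted p = 0.00346) and had come back 4.52-fold from its D4 level (log2 2.18, 95% interval 1.55 to 2.80, adjusted p = 0.0159). The return was not called without D4 a (log2 1.98, adjusted p = 0.169) or D4 b (2.40, adjusted p = 0.114), each of which leaves 1 library on D4. In these reduced fits no gene of the whole table passed edgeR's test between D7 and D4, while 13.3% and 14.8% of all genes had an unadjusted p-value under 0.05. Without D7 a, the library low in fat markers, the D7 fall was -1.97 (adjusted p = 0.00468).

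Ppp2r2b, the beta isoform (ENSRNOG00000018851, chr18:36985714-37245809), followed the same order at a lower level, with 18.9 and 14.5 CPM in control, 3.32 and 3.07 on D4 and then 7.51 and 5.0 on D7. The groups did not overlap. It was 5.22-fold below control on D4 (log2 -2.38, SE 0.26, adjusted p = 0.00106) and 2.67-fold below on D7 (log2 -1.42, SE 0.25, adjusted p = 0.00782). The difference between D7 and D4 was 0.97 and did not pass the test (adjusted p = 0.0931), although DESeq2 gave 0.0413. Without D7 a the D7 fall was -1.71 (adjusted p = 0.0120). These genes also had the longest spans of the 10, 260.1 kb for Ppp2r2b and 222.8 kb for Ppp2r2c against 8.1 to 138.8 kb for the others.

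The falls of Ppp2r2b and Ppp2r2c moved with the myelin markers, of which 7 of 7 fell on D4 and 5 of 7 were still lower on D7. The summed myelin level was lowest on D4 and partly higher on D7, and library a was above library b in control and on D7, as it was for Ppp2r2b and Ppp2r2c. On D4 library a was below library b in the myelin sum and in Ppp2r2c, and above it in Ppp2r2b. The pattern was not particular to these B55 genes. Ppp2r3a, the other member that fell on D4, was also lowest there, although its D7 level did not differ from D4 by the test (adjusted p = 0.156). Its libraries had the order of the myelin sum in control (115 and 107 CPM), D4 (47.8 and 50.2) and D7 (62.0 and 56.5). Of the neuron markers, the neurofilament gene Nefl measured 9.68 and 10.7 CPM in control, 0.821 and 2.48 on D4, and 131 and 202 on D7. It thus fell on D4 (log2 -2.60, adjusted p = 0.00569), as did Ppp2r2b and Ppp2r2c, and was above control on D7 (log2 4.03, adjusted p = 0.00113), where they were below it. Snap25 had -1.80 on D4 (adjusted p = 0.0683) and fell by 3.63 on D7 (adjusted p = 0.0147). The tubulin gene Tubb3 was higher on D4 by 0.76 (adjusted p = 0.0140) and made up most of the summed neuron markers there (36.4 of 38.0 CPM and 45.1 of 50.7 CPM). The neuronal nuclear marker Rbfox3 had at most 1 fragment in any library. The part of cell composition in these falls was not tested.

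Ppp2r2a, the alpha isoform and most widely expressed B55 subunit (ENSRNOG00000011158, chr15:43673960-43733182), measured 72.2 and 78.8 CPM in control, 85.1 and 83.2 on D4 and then 72.3 and 75.7 on D7. The D4 libraries were slightly above the rest. Its log2 fold change was 0.16 on D4 (95% interval -0.06 to 0.38, adjusted p = 0.206) and -0.03 on D7 (-0.25 to 0.19, adjusted p = 0.821), and the D7 sign changed under other settings. Ppp2r2d, the delta isoform known from work on mitotic entry (ENSRNOG00000016940, chr1:211205903-211239888), measured 30.4 and 29.2 CPM in control, 30.1 and 28.0 on D4 and then 21.5 and 25.2 on D7. The D7 libraries were the lowest. The D7 value was -0.35 with adjusted p = 0.0629, and the D4 value was -0.04 with adjusted p = 0.820 and of unstable sign.

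The make-up of the B55 class also differed, again described without a test. By FPKM, Ppp2r2c held 37.8% and 33.6% of the class in control, 3.23% and 4.44% on D4, and 20.3% and 13.7% on D7. Ppp2r2b held 7.89% and 6.43%, then 2.18% and 2.06%, then 4.85% and 3.30%. The share of Ppp2r2a went from 34.4% and 39.7% in control to 63.7% and 63.9% on D4 and 53.2% and 56.9% on D7. Such shares sum to the whole, so a member whose own level did not pass the test gains share when another falls.

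In control nerve Ppp2r2c and Ppp2r2a could not be ordered, since Ppp2r2c had the higher FPKM in control a (29.1 against 26.5) and the lower in control b (25.1 against 29.7). After injury Ppp2r2a was the higher in all 4 libraries, where the ratio of Ppp2r2c to Ppp2r2a was 0.0508 and 0.0695 on D4 against 0.381 and 0.241 on D7. The summed B55 level was 182 and 173 CPM in control, 122 and 119 on D4 and then 122 and 120 on D7. The D7 sum was thus near the D4 sum although Ppp2r2c was higher, with Ppp2r2a and Ppp2r2d at lower values than on D4. Neither of these lower values passed the test between the days (Ppp2r2a -0.19, adjusted p = 0.269, and Ppp2r2d -0.32, adjusted p = 0.176).

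**Figure D3:**
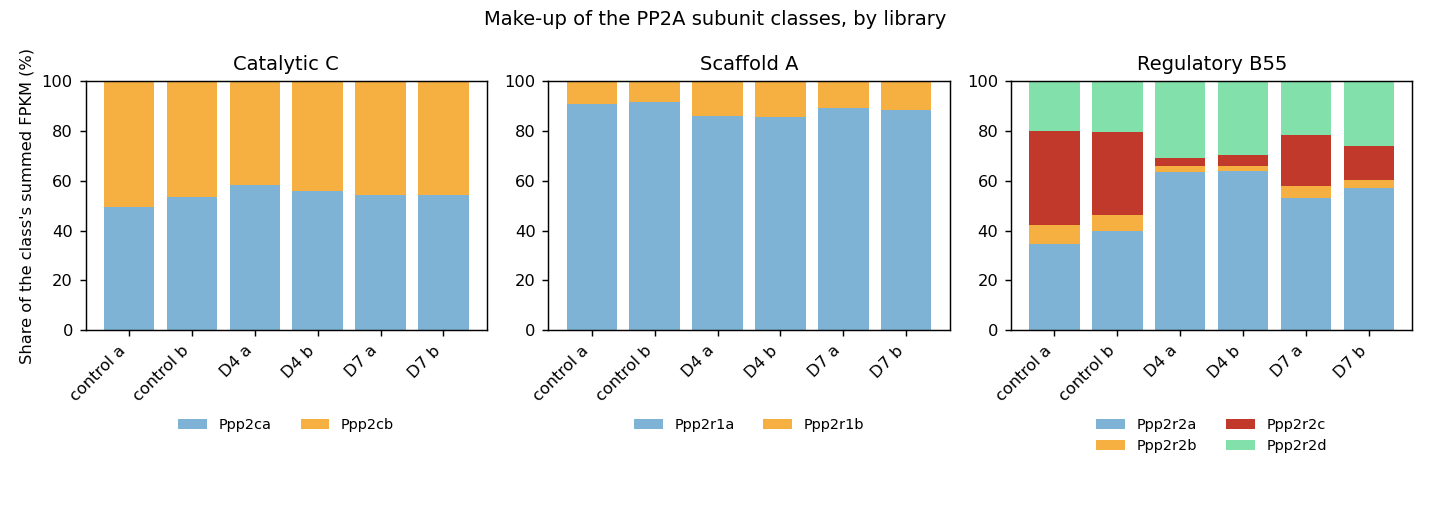
Share of each class's summed FPKM (y axis, percent) held by each subunit in the 6 libraries (x axis), for the catalytic, scaffold and B55 classes. The red Ppp2r2c segment of the B55 class is 37.8% and 33.6% in control, with 3.23% and 4.44% at D4 and 20.3% and 13.7% at D7.

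The remaining regulatory members moved apart. Ppp2r3a, a B'' subunit that binds calcium (ENSRNOG00000022999, chr8:109482614-109621408), measured 115 and 107 CPM in control, 47.8 and 50.2 on D4 and then 62.0 and 56.5 on D7. The 3 groups did not overlap. The fall was 2.26-fold on D4 (log2 -1.18, SE 0.10, adjusted p = 0.000403) and 1.87-fold on D7 (log2 -0.90, SE 0.10, adjusted p = 0.00134). The D7 fall passed the test without reaching 2-fold, and without TMM factors the D4 fall was -0.89.

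Ppp2r5b, a B56 subunit known to act on Akt (ENSRNOG00000021025, chr1:221597296-221605400), measured 35.8 and 35.7 CPM in control, 35.3 and 42.4 on D4 and then 49.8 and 44.6 on D7. The D7 libraries were above all others. Its rise of 1.32-fold on D7 (log2 0.40, SE 0.12, adjusted p = 0.0454) lay close to the threshold and was lost when any of the 6 libraries was left out (adjusted p = 0.0549 to 0.157). On D4 the value was 0.12 with adjusted p = 0.454.

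Across genes, the order by FPKM put both catalytic subunits and the scaffold Ppp2r1a above the regulatory subunits, whereas the scaffold Ppp2r1b lay among them. In control a Ppp2r1a was highest at 86.8 FPKM, followed by Ppp2cb (67.9) and Ppp2ca (66.1), and the lowest was Ppp2r2b at 6.08. In every library the 3 highest members were Ppp2r1a, Ppp2ca and Ppp2cb. Ppp2r1b held place 9 of the 10 in both controls (8.72 and 7.93 FPKM), place 5 on D4 (22.1 and 21.8) and place 6 on D7 (15.7 and 16.7). Ppp2r2b was the lowest in each library, with Ppp2r2c next to it on D4 at 1.96 and 2.63 FPKM against 1.32 and 1.22. FPKM of genes with different annotated lengths, from 930 nt for Ppp2ca to 9398 nt for Ppp2r3a, remain approximate.

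The lncRNA table listed 21 transcripts within 10 kb of a member gene, and 16 of these passed the low-count filter. On D4 3 of the 16 fell and none rose, against 4.87% of all 14077 lncRNAs tested that fell. On D7 none of the 16 was lower by the rule, against 2.79% of all, and 5 had an unadjusted p-value under 0.05, as had 25.5% of all. None was higher on D7 than on D4, against 0.142% of all, and 4 had an unadjusted p-value under 0.05, as had 12.5% of all. DESeq2 called 1 of them on D7 and 2 between D7 and D4, against 10.5% and 3.46% of all lncRNAs to which it gave an adjusted p-value. The transcripts that fell lie at Ppp2r2b and Ppp2r2c, and the study had picked them from these libraries.

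NONRATT009996.2 (1638 nt, chr14:78676780-78678417) ended 797 bp before the low-coordinate end of Ppp2r2c, a gene that RefSeq places on the minus strand of GRCr8. It held 1818 and 1144 fragments in control, 102 and 183 on D4 and then 646 and 379 on D7. The groups did not overlap. Its log2 fold change was -3.54 on D4 (SE 0.40, adjusted p = 0.00777) and -1.62 on D7 (SE 0.37, adjusted p = 0.0657), and the D4 call was lost without D4 a (adjusted p = 0.0570). The count of this transcript per count of Ppp2r2c stayed between 1.28 and 1.56 in all 6 libraries. Strand use in counting is not given in the sources used here.

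At Ppp2r2b, NONRATT013802.2 (580 nt, chr18:37237481-37238060) lies inside the gene span. It held 37 and 22 fragments in control, 4 and 4 on D4, and 37 and 24 on D7. Control and D7 overlapped and D4 was lower. The D4 value was -2.99 (SE 0.47, adjusted p = 0.0196) and was lost without D4 a, D4 b or control a (adjusted p = 0.109, 0.120 and 0.0671). The D7 value was -0.04 (95% interval -1.01 to 0.93, adjusted p = 0.964), and D7 against D4 gave 2.95 (adjusted p = 0.109).

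Relative to Ppp2r2b, NONRATT013802.2 gave 0.101 and 0.0913 fragments per gene fragment in control, 0.0494 and 0.0482 on D4 and then 0.231 and 0.238 on D7. The groups did not overlap in this ratio, which rests on 4 fragments in each D4 library. NONRATT013801.2 (1081 nt, chr18:37086271-37246483) covers much of the gene and reaches 674 bp past its high-coordinate end. It held 59 and 38 fragments in control, 9 and 17 on D4 and then 37 and 21 on D7. The call of its D4 value of -2.05 (SE 0.46, adjusted p = 0.0467) was lost when any of the 6 libraries was left out (adjusted p = 0.0680 to 0.200), and the D7 value was -0.83 (adjusted p = 0.295). Fragments of these transcripts and of the gene that covers them may not be separable. How such fragments were assigned is not given in the sources used here.

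**Figure D4:**
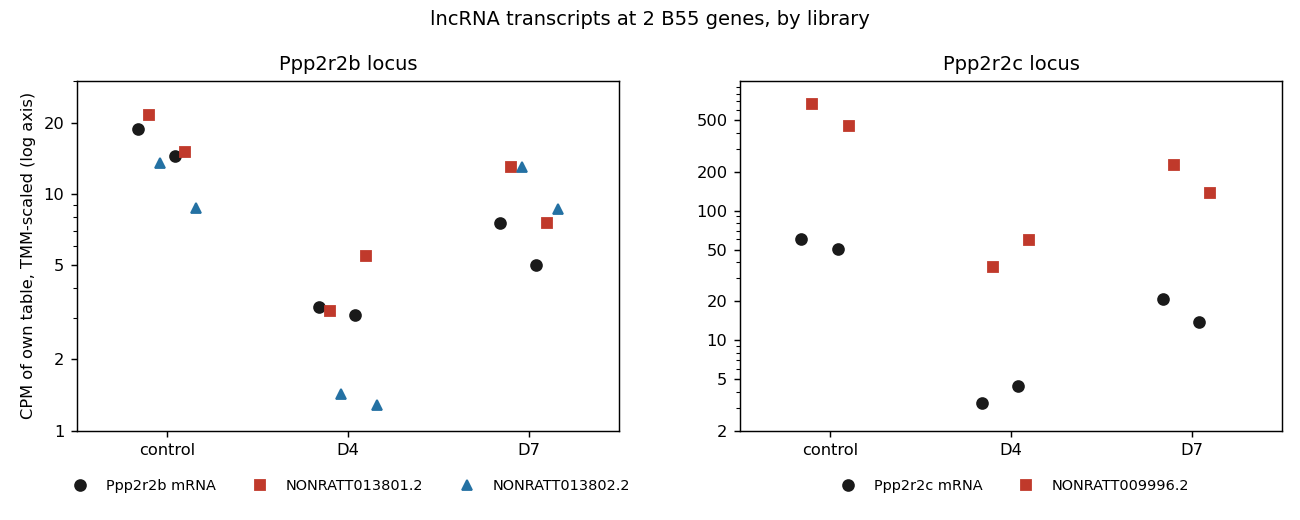
TMM-scaled CPM, each within its own table (y axis, log scale), of Ppp2r2b, Ppp2r2c and the lncRNAs at their loci in control, D4 and D7 libraries (x axis), with 1 point per library. All are lowest on D4, and the NONRATT013802.2 points on D7 (12.9 and 8.61) overlap those in control (13.5 and 8.68).

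The 35 other genes listed include 11 STRIPAK partners, which assemble PP2A with striatins, and 2 PP2A-like catalytic subunits. Of the 35, 34 were found, all but Ppp2r5d, and all 34 were tested. On D4 2 rose and 2 fell by the 2-fold rule, against 11.2% and 10.7% of all genes, and on D7 2 rose and 1 fell, against 9.83% and 9.02%. These small counts are below the shares of all genes, and the difference was not tested. Of the 8 other regulatory subunits, none changed 2-fold at either day. By the adjusted p-value alone Ppp2r3b rose on both days (0.63 and 0.58) and the striatin Strn fell (-0.63 and -0.79). The related catalytic subunit Ppp4c of protein phosphatase 4 was higher by 0.94 (adjusted p = 0.00334) and 0.77 (adjusted p = 0.00896).

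The largest rises were among the 8 inhibitors and their kinase. Mastl, the Greatwall kinase that blocks PP2A-B55 through Ensa and Arpp19 at mitosis, measured 3.86 and 5.0 CPM in control, 60.2 and 64.8 on D4, and 27.5 and 32.6 on D7. It rose 14.1-fold on D4 (log2 3.82, SE 0.17, adjusted p = 0.000120) and 6.79-fold on D7 (log2 2.76, SE 0.17, adjusted p = 0.000352). The gene listed under RGD1310335, which RefSeq names Cip2a, an inhibitor of PP2A, measured 1.39 and 1.27 CPM in control, 19.0 and 20.5 on D4, and 12 and 12.3 on D7. Its rises were 14.8-fold (log2 3.89, adjusted p = 0.000119) and 9.07-fold (log2 3.18, adjusted p = 0.000278).

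The substrates of Mastl did not rise with it. Ensa was lower by -0.75 on D4 (adjusted p = 0.00410) and -0.58 on D7 (adjusted p = 0.0132), and Arpp19 by -0.77 on D7 (adjusted p = 0.0190) with -0.52 on D4 (adjusted p = 0.0531). Cycling cell markers moved with Mastl and Cip2a: 5 of 5 rose at both days, and their sum was 31.7 and 67.3 CPM in control, 812 and 956 on D4 and then 544 and 582 on D7. The part of cycling cells in these rises was not tested.

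Lcmt1, which methylates the catalytic subunit and favors B55 binding, measured 41.6 and 31.3 CPM in control, 19.0 and 17.3 on D4, and 24.0 and 21.4 on D7. Its D4 fall was 2.01-fold (log2 -1.01, SE 0.17, adjusted p = 0.00460), at the edge of the 2-fold rule, and it was smaller than 2-fold in 10 of 13 alternatives with the adjusted p-value under 0.05 in each. Ppme1, which removes the methyl group, had -0.14 on D4 (adjusted p = 0.481). Of the 11 STRIPAK partners, which assemble PP2A with striatins, Cttnbp2 fell from 138 and 135 CPM to 22.5 and 21.2 on D4 and 25 and 21.7 on D7 (log2 -2.64 and -2.55, adjusted p = 0.000119 and 0.000213).

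Akt1 and Akt2, kinases that PP2A can dephosphorylate, moved in opposite directions. Akt1, the most widely expressed Akt, measured 170 and 156 CPM in control, 277 and 280 on D4, and 227 and 229 on D7, and rose by 0.77 on D4 and 0.48 on D7 (adjusted p = 0.00116 and 0.00811). Akt2, known for insulin signaling, went from 150 and 159 CPM to 95.1 and 87.1 on D4 and 89.5 and 101 on D7 (log2 -0.76 and -0.70, adjusted p = 0.00214 and 0.00384). Phosphorylation of Akt was not measured, and transcript levels give no phosphatase activity.

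**Figure D5:**
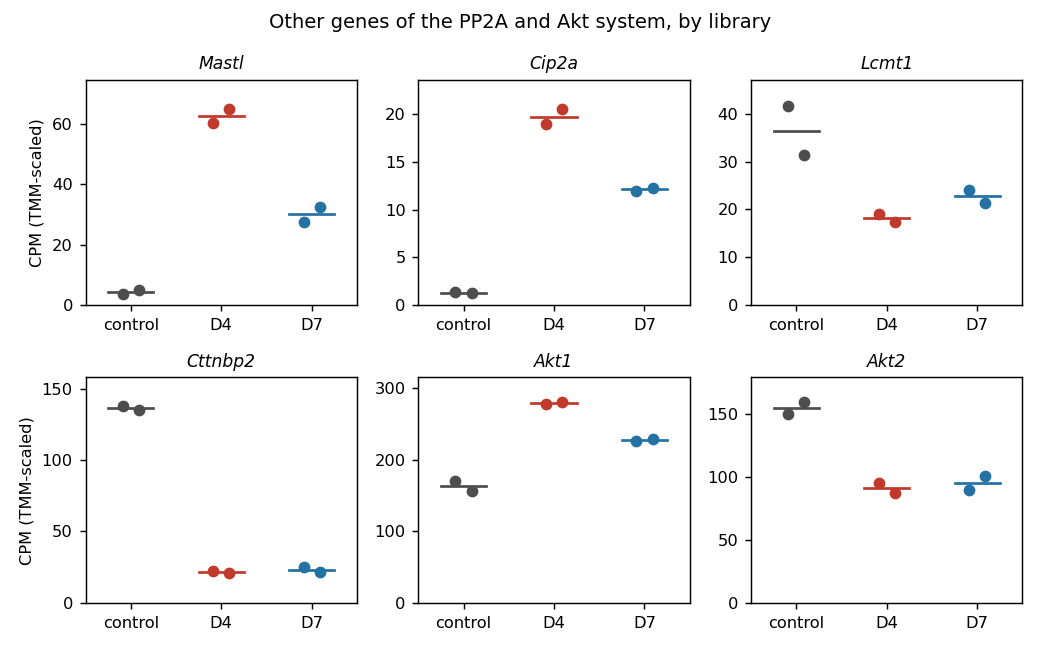
TMM-scaled CPM (y axis, from 0) of 4 other listed genes and of Akt1 and Akt2 in control, D4 and D7 nerves (x axis). There is 1 point per library and a bar at the mean of 2. Mastl and Cip2a are highest on D4, Cttnbp2 is low at both days, and Akt1 lies above control where Akt2 lies below it.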

How the data were processed

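Sciatic nerve RNA of 6 rats was sequenced after removal of ribosomal RNA. Reads were mapped by the authors to the Ensembl rat genome (Rnor_6.0) with HISAT2 2.0.4, and transcripts were assembled and counted with StringTie 1.3.0, per the submitters' processing notes. The fragment counts deposited by the authors are whole numbers without normalization. The FPKM values deposited by the authors follow each library's count total without TMM factors and were used only for levels within a library.

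Counts were filtered with filterByExpr, scaled with TMM and tested with the quasi-likelihood test of edgeR 4.0.16 (R 4.3.3) in 1 fit of the 6 libraries, for 15195 of 30957 genes and 14077 of 22721 lncRNAs separately, with Benjamini-Hochberg adjustment. Library sizes were those of the features tested. A call required a 2-fold change together with an adjusted p-value under 0.05. Standard errors were taken as the size of the log2 fold change over the root of the F statistic. Shares within subunit classes were computed from FPKM without a test, since an exact permutation test of 2 against 2 cannot go below p = 0.333. Simulated data with known changes were used to test the scripts. Alternatives were relative log expression factors, no factors, DESeq2 1.42.0, other count filters, fits of 2 groups, a replicate block and leaving out each library.

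The members and lists were chosen with earlier results of these data known. The genes named are the 10 members, Akt1 and Akt2, up to 3 listed genes per list past the threshold, and lncRNAs of the member loci past it. Ppp2r3b, Strn, Ppp4c, Ensa, Arpp19 and Ppme1 were added to these once their values had been seen. Some listed genes are not reported here. The letters a and b name different rats that were drawn at random, so libraries were not paired. Promoter sequences came from RefSeq (GRCr8). Markers of myelin, macrophages, muscle, fat, fibroblasts, endothelium, cycling cells and neurons were summed per library. Of the 7 macrophage markers 7 rose on D4 and 5 on D7, and of the 4 endothelial markers tested 3 and 4 fell. Of the 4 fibroblast markers tested none and 1 fell, and no muscle or adipocyte marker passed. Of the 4 neuron markers tested 1 fell on D4, and on D7 1 rose and 1 fell.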

Additional observations from a re-analysis of the deposited data

Results flagged for a closer look

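For 3 of the genes named, the levels on D4 and D7 differed from each other in edgeR's quasi-likelihood test (adjusted p under 0.05). By the same rule 4.67% of all 15195 genes differed. Mastl and Cip2a had been named because they passed the threshold against control. Ppp2r2c was higher on D7 than on D4 by 2.18 on the log2 scale (SE 0.26, adjusted p = 0.0159), with both D7 libraries above both D4 libraries. Mastl differed by -1.06 (SE 0.15, adjusted p = 0.0247) and Cip2a by -0.70 (SE 0.14, adjusted p = 0.0482), each with both D7 libraries below both D4 libraries. The Cip2a difference was under 2-fold. Leaving out either D4 library took each of these adjusted p-values above 0.05, and for Mastl and Cip2a leaving out D7 a did so as well. Leaving out D7 b did so for Cip2a (adjusted p = 0.115), and with the replicate block its adjusted p-value was 0.0847.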

How the results depend on the processing

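With 2 rats a group, the calls of small changes and those of lncRNAs depend on single libraries, lncRNA calls near the threshold rest on few fragments, and the FPKM shares depend on the annotated lengths. Leaving out a library leaves 1 in its group, assumed to vary like the others. Ppp2r1b, Ppp2r2b and Ppp2r2c kept their direction and their side of the 2-fold threshold against control in all 13 alternatives on both days, with log2 fold changes on D4 from 1.02 to 1.4, -2.56 to -2.09 and -4.07 to -3.56. Ppp2r3a kept its D4 call except without TMM factors (-0.89). The letters pair no rats, and same-letter deviations from the group means correlated at 0.01 between control and D4, 0.19 between control and D7 and -0.13 between D4 and D7. With the replicate block the counts of members called were 4 on D4, 2 on D7 and 1 between them, as in the fit without it. Of all genes, 21.6%, 18.6% and 1.63% were called with the block. By the adjusted p-value alone it gave 5 members on D4 and 4 on D7, against 41.1% and 34.8% of all genes. With the block 2 lncRNAs fell on D4, where 6.38% of all lncRNAs were called in either direction.

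By the adjusted p-value alone, 8 members passed on D4 without TMM factors (48.5% of all genes). Between D7 and D4 3 passed with DESeq2 (12.5% of all genes), 2 with relative log expression factors (4.65%) or in the fit of 2 groups (8.37%), and 0 to 2 when a library was left out (0.00% to 6.57%). The 2-fold rule gave 0 to 1 there with a library left out (0.00% to 2.99%). The lncRNAs called numbered 1 on D4 and 1 on D7 when 10 counts were required in every library (13.5% and 9.65% of all lncRNAs), and 0 to 2 on D4 with a library left out (2.00% to 6.42%). DESeq2 called 1 lncRNA on D7 and 2 between the days (10.5% and 3.46%). Whether any of the other listed genes was called between the days depended on the library left out. Shares by counts in place of FPKM were 38.3% in control, 43.9% on D4 and 41.2% on D7 for Ppp2ca, 15.4%, 23.5% and 19.3% for Ppp2r1b, 31.2% in control for Ppp2r2c, and 9.39% in control and 2.66% on D4 for Ppp2r2b.

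Signs changed only for members and lncRNAs that did not pass the test in that comparison, and the cause was not tested. Without TMM factors Ppp2cb was at 0.02 on D4 and 0.17 on D7, Ppp2r2d at 0.25 on D4, Ppp2r2a at 0.26 on D7 and NONRATT013802.2 at 0.12 on D7. Ppp2r2d on D4 was at 0.02 in the fit of 2 groups and from -0.09 to 0.01 with a library left out, including 0.00 without D7 a. Ppp2r2a on D7 was at 0.00 with 10 counts required in every library and from -0.09 to 0.03 with a library left out. With a library left out Ppp2r5b on D4 ran from -0.02 to 0.25, Ppp2ca between the days from -0.07 to 0.05, including 0.00 without D7 a, and NONRATT013802.2 on D7 from -0.37 to 0.28, including 0.23 without D7 b.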
